A study of Mus musculus with 16 samples.

Results

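The regions described here are 5 windows of the mouse genome that hold antigen receptor loci, measured by comparative genomic hybridisation in 16 cultures of syngeneic mouse tumour lines. Coordinates are on the mm8 (NCBI36) build throughout. The windows are chr14 50 to 56 Mb (T cell receptor alpha and delta), chr6 40 to 42 Mb (T cell receptor beta), chr13 18.5 to 20.5 Mb (T cell receptor gamma), chr12 112.5 to 117.5 Mb (immunoglobulin heavy chain) and chr6 67 to 71 Mb (immunoglobulin kappa light chain). They were chosen by position, as every non-control probe lying inside these bounds. The windows hold 793, 243, 209, 545 and 315 probes in that order, set here against 220668 autosomal probes. Each value is the log2 ratio of the line's DNA (red dye, Cy5) over the reference DNA (green dye, Cy3), centred on the array's autosomal median, so that 0 is the typical autosomal ratio of that array.

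An antigen receptor locus is the place where a lymphocyte changes its own DNA. In a developing T or B cell, the RAG recombinase joins 1 V segment, in some loci a D segment, and a J segment, and the DNA between the joined segments is usually cut out and lost, or else turned round. The heavy chain and the beta, gamma and delta receptor genes, the alpha gene and the kappa gene rearrange in this way, and the delta gene lies inside the alpha locus, so that joining alpha segments removes it. Cells of other lineages keep the loci in the unrearranged form. As background on the size of these loci, RefSeq (assembly GRCm38.p6) lists 114 V, 51 J and 1 C segment for Tra, 5 V and 2 D for Trd, 22 V, 2 D and 13 J for Trb, 7 V and 4 J for Trg, 120 V, 10 D and 4 J for Igh and 102 V and 5 J for Igk. The array files pair no probe with a gene, so the positions below carry no segment names, and the names of the windows were not checked against gene models of mm8.

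The lines were grown in vitro, and each gave 1 array. EL4, labelled as from blood and of C57BI6 background, is a T cell lymphoma line and the only lymphocyte line of the series. The other 11 C57BI6 arrays are MC38 (colorectal), LL2 (lung), B16F0 ECAC, B16F0 ATCC, B16F10 NCI and B16F10 ATCC (melanoma), Hepa1-6 (liver), PAN02 (pancreas), TRAMPC1 and TRAMPC2 (prostate) and ID8 (ovary). The Balb/C lines are CT26 (colon), 4T1 (breast) and Renca (renal), and P815 (mast cells) is the 1 DBA/2 line. The 4 B16 arrays and the 2 TRAMPC arrays were each treated as 1 family, which gave 12 families. The reference on every array was commercial mouse genomic DNA, whose strain and tissue the labels do not give. A ratio shared by most arrays can therefore come from the lines or from the reference, and these cannot be told apart. Between 99.2% and 99.9% of the line's probes were well above background on each array, and the noise between neighbouring probes was 0.22 to 0.41. Precision is set by how many arrays there are. The Hepa1-6 and PAN02 arrays were close to identical: over 185 bins of 100 kb in the windows they correlated at 0.982 (a description across bins of 2 arrays that share the reference), against 0.856 to 0.965 for arrays of the same family. Values for both are given under their labels, and the strain result is given with both counted as 1 family too.

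EL4 was compared with the other lines to ask whether its receptor loci had lost DNA. At each probe the median of the 11 other families was subtracted from EL4, and a probe was counted as low at a difference of -1 or less, that is at least 2-fold lower. EL4 had 57 low probes of 793 in the alpha/delta window (7.19%) and 18 of 243 in the beta window (7.41%), against 1.95% of its autosomal probes. It had 4 of 209 in the gamma window (1.91%), 9 in the heavy window (1.65%) and 0 of 315 in the kappa window, shares at or below that background. With 1 array of EL4 there is no replicate check and no test of these differences. The same count in the 11 other C57BI6 arrays gave 0 to 7 low probes in the alpha/delta window, 0 in the beta window, 0 to 3 in gamma, 0 to 18 in heavy and 0 in kappa. The lines of the other strains had more in the alpha/delta window, 34 to 48 in the 3 Balb/C lines (4.29% to 6.05%, against 1.05% of autosomal probes in CT26, 1.06% in 4T1 and 1.56% in Renca) and 40 in P815 (5.04%, against 4.28%), and 0 in beta. In the C57BI6 arrays other than EL4 the autosomal share of low probes ran from 0.0159% in PAN02 to 1.29% in B16F10 ATCC. In the other direction, at a difference of 1 or more, EL4 had 1 probe each in the alpha/delta, gamma and heavy windows and 0 in beta and kappa, against 0.16% of its autosomal probes. Of the 57 low probes in the alpha/delta window 46 lay in 2 unbroken runs of at least 3 neighbouring probes. In the other windows most lay outside such runs: 12 of the 18 in beta (with 2 runs), 5 of the 9 in heavy (with 1 run) and all 4 in gamma. With normexp background correction in place of the scanner's processed signals the low probes fell to 9 in alpha/delta and 2 in beta, against 0.0403% of autosomal probes.

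**Figure D1:**
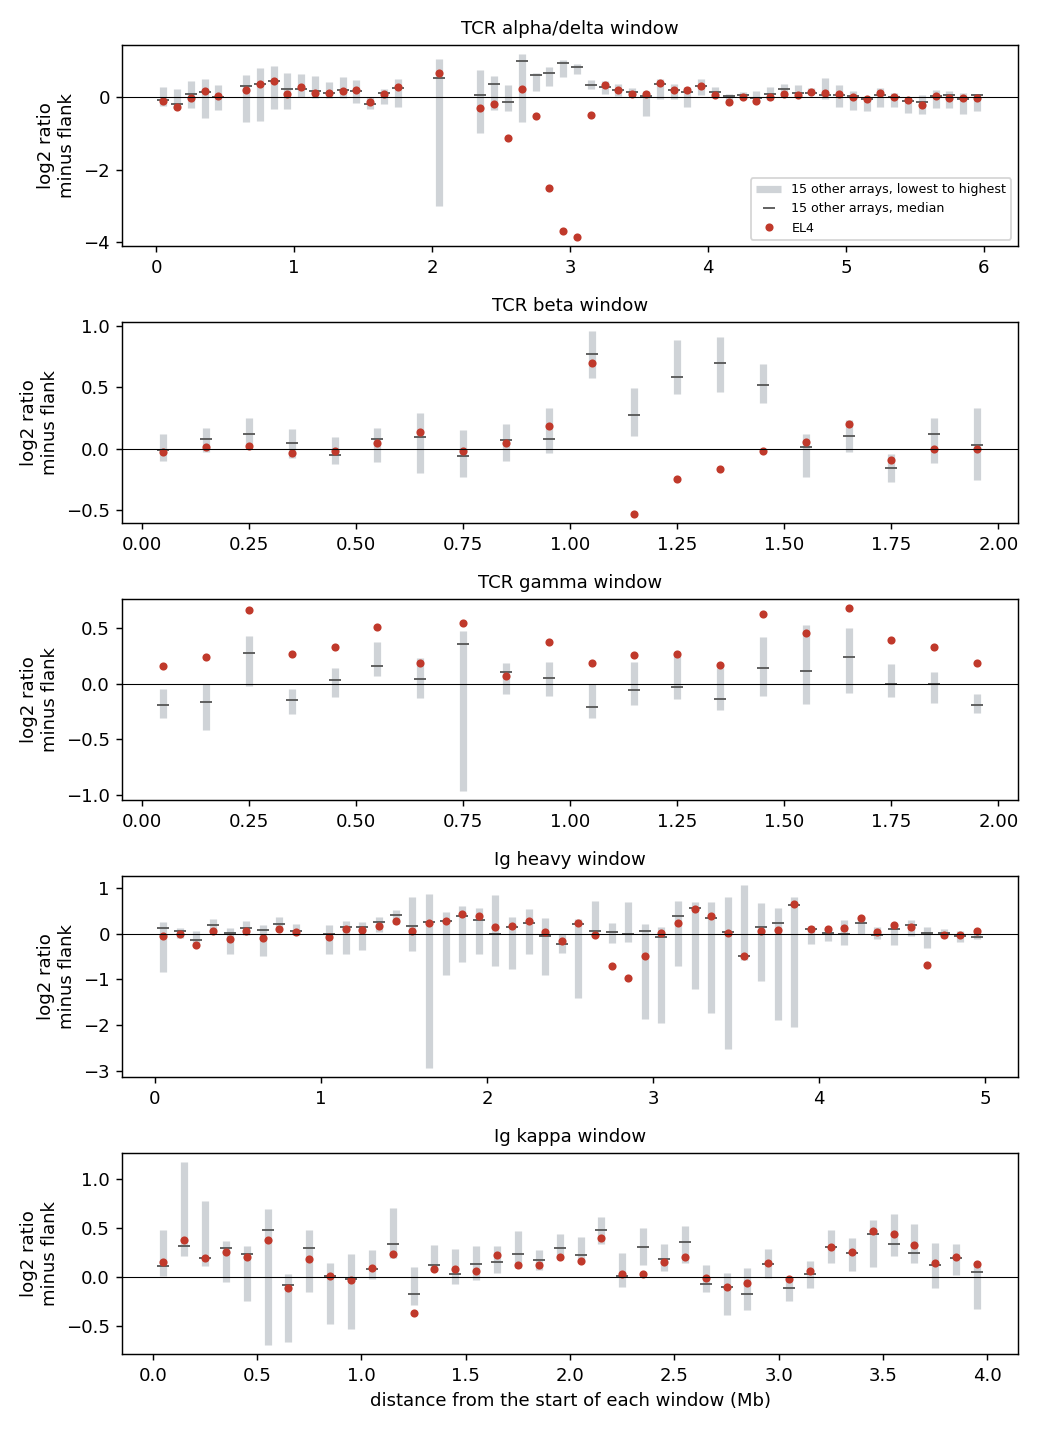
Mean log2 ratio in bins of 100 kb (bins of at least 3 probes) minus the median of the 5 Mb on each side of the window (vertical axis), by distance from the start of each window in Mb (horizontal axis). Red points are EL4, grey bars run from the lowest to the highest of the 15 other arrays and dashes mark their median. EL4 lies below all 15 others in 9 of 55 bins of the alpha/delta window and 5 of 20 in beta. In gamma it does so in 0 of 20, in heavy in 5 of 49 and in kappa in 3 of 40. Without the flank subtraction the counts are 7, 5, 0, 3 and 0 in the same order. The share over autosomal bins was not computed, so these counts have no background beside them.

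The longest EL4 run lay in the T cell receptor alpha/delta window, at chr14:52830056-53122382. This run covered 38 neighbouring probes. EL4 had a mean log2 ratio of -4.00 ± 1.45 (SD over the 38 probes), while the 15 other arrays lay between 0.25 (Renca) and 0.89 (TRAMPC2) with a median of 0.59. EL4 was thus far below every other array, and the 15 others were all above 0. It was the lowest of the 16 arrays at 36 of the 38 probes, a rank favoured by the choice of the run for a low EL4. At 27 of these probes the EL4 signal was not well above background, so the mean ratio is not a measured level. With those spots set to the lowest signal that counted as above background, EL4 was at least 10.9-fold lower than the median of the other families. At the 11 probes where EL4 was measured above background the difference was -2.47, or 5.52-fold lower. With normexp background correction the difference over the run was -0.87.

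Both edges of this run could be placed to a few kilobases. On the right, the last low probe (chr14:53122323-53122382) read -5.58 in EL4, and its neighbour at chr14:53131006-53131065 read 0.37, inside the range of the 15 other arrays there (-0.02 to 1.05). The next 5 probes on that side differed from the median of the other families by -0.10 to 0.13. The edge was therefore abrupt, with EL4 back among the other arrays within 1 probe. On the left, the first probe of the run (chr14:52830056-52830115) read -2.82, and its neighbour at chr14:52823971-52824030 read -0.86, still below the lowest other array at -0.25. The left side was thus a step to an intermediate level, not a return to the level of the other arrays.

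That intermediate level extended further left. A second run of 8 probes, at chr14:52762951-52812001, had a mean of -0.78 ± 0.56 (SD over probes) in EL4 and 0.21 (Renca) to 0.77 (TRAMPC2) in the 15 others. The difference from the other families was -1.33, or 2.51-fold lower, and all 8 EL4 probes were above background. Here too EL4 lay outside the range of the other arrays, by a smaller step, and with normexp the difference was -0.53. A change point search along the whole chromosome, with no knowledge of the windows, used the same EL4 values. It also found an intermediate and a deep level, with other bounds. The 8-probe run lay inside a longer segment, and the longest run was cut in 2. It gave -0.02 over 161 probes at chr14:50724271-52300139, -0.62 ± 0.11 (SE over 43 probes) at chr14:52304599-52824030, -3.36 ± 0.36 (16 probes, 9 not above background) at chr14:52830056-52944102 and -4.47 ± 0.27 (22 probes, 18 not above background) at chr14:52950514-53122382. To the right it returned to -0.01 over 164 probes at chr14:53131006-53984361. Over the 43 probes at -0.62 the other C57BI6 families averaged 0.36, P815 0.10 and Balb/C -0.25. Over 27 of them, at chr14:52304599-52729462, EL4 was at -0.58 and Balb/C at -0.50. On average this left part was thus about as low in Balb/C as in EL4, but partly at different probes. Runs of probes lower in Balb/C, starting at chr14:52456820, 52616371 and 52696544, had means of -0.74, -1.91 and -0.91 in Balb/C. EL4 had -0.18, 0.28 and -0.12 there. EL4 had 6 boundaries in this window, against 2 to 4 in the others. That excess was lost in both alternatives: EL4 had 3 and Renca 4 with the penalty of the search doubled, and EL4 had 2 and P815 3 with normexp. The last of the low segments, at -4.47, was the lowest segment of this window in any of the 16 arrays, and the highest was 0.84 over 67 probes in TRAMPC1, across the same part of the locus.

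**Figure D2:**
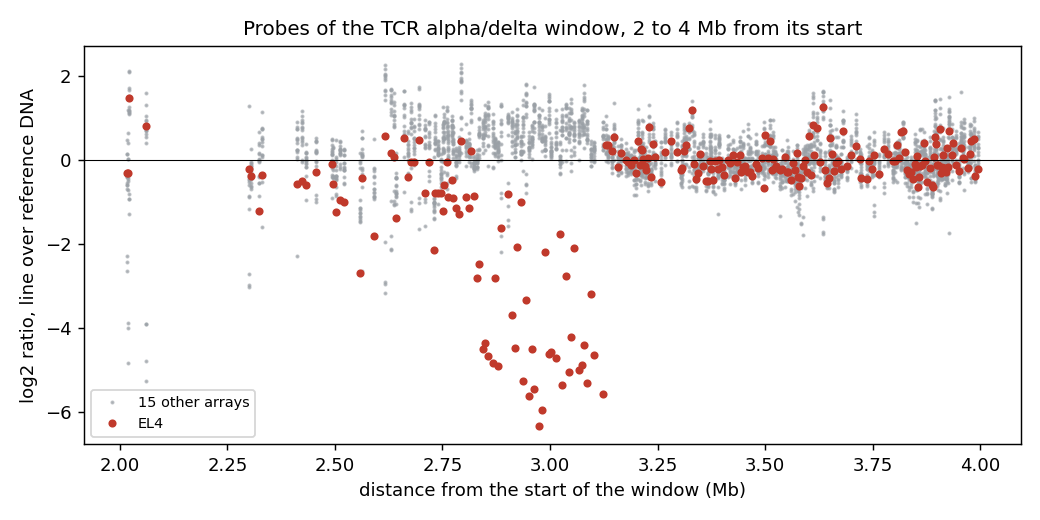
Log2 ratio of each probe (vertical axis) between 2 and 4 Mb from the start of the T cell receptor alpha/delta window (horizontal axis, Mb). Red points are EL4 and grey points the 15 other arrays; EL4 falls to a mean of -0.62 and then below -3 before it rejoins the other arrays within 1 probe, while the others stay above 0 on average over the 38 probes of the run.

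Outside EL4, the same stretch of the alpha/delta window was raised. In 9 of the 16 arrays the search found a high segment whose ends lay within 60 kb of chr14:52616371-53131065 (67 probes). Measured against the median of the 5 Mb on each side, this interval was 0.69 to 0.87 higher in the 11 other C57BI6 arrays, 0.32 to 0.36 higher in the 3 Balb/C arrays and 0.47 higher in P815. In EL4 it stood at -2.23. All 15 arrays of non-lymphoid lines therefore stood above the median of their flanks where EL4 stood below. In MC38 the flank was 0.33 on the left and -0.52 on the right, so its height depends on the side used. The search found no such high segment in MC38. Since every array used the same reference, more DNA in the lines and less in the reference cannot be told apart.

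The T cell receptor beta window showed the same arrangement with smaller steps. A high segment at chr6:40989681-41487803 (64 probes) was found, with ends within 60 kb, in 11 of the 16 arrays. Over this interval the 15 other arrays stood 0.40 (MC38) to 0.76 (P815) above their flanks, with a median of 0.58, and EL4 stood at -0.02. EL4 did share the first part: at chr6:40989681-41070476 (12 probes) it was 0.82 above its flank, inside the range of 0.51 to 0.94 in the others. From chr6:41079858 to 41487803 (52 probes) it was at -0.22, and the others were at 0.37 to 0.72 with no overlap. Of the segments lying wholly inside this window, the lowest was the raised one of 4T1 (0.44 over 64 probes). The highest was that of B16F10 ATCC (1.32 over 68 probes, chr6:40964872-41487803). The EL4 segment that started at chr6:41079858 was lower, at -0.06, but ran past the end of the window. The change in EL4 lay between the probes ending at 41070476 and starting at 41079858. The 52 probes were thus marked off by EL4's own values.

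Within that second part lay both EL4 runs of the beta window. At chr6:41202620-41219110 (3 probes) EL4 had a mean of -0.27 and the other arrays had 0.62 (4T1) to 1.54 (P815) with a median of 0.90. At chr6:41315176-41325241 (3 probes) EL4 had -0.06 and the others had 0.71 (4T1) to 1.82 (B16F10 NCI) with a median of 1.13. EL4 was the lowest of 16 at all 6 probes, and the differences of -1.08 at both runs correspond to 2.12-fold lower. All 18 low probes of this window were above background in EL4, so these are measured levels and not bounds. EL4 was the lowest array at all 18. Low probes and runs were chosen for a low EL4, so these ranks follow in part from the choice. With normexp the run at 41315176 differed by -0.62. With the penalty of the change point search doubled, no EL4 boundary remained in this window.

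**Figure D3:**
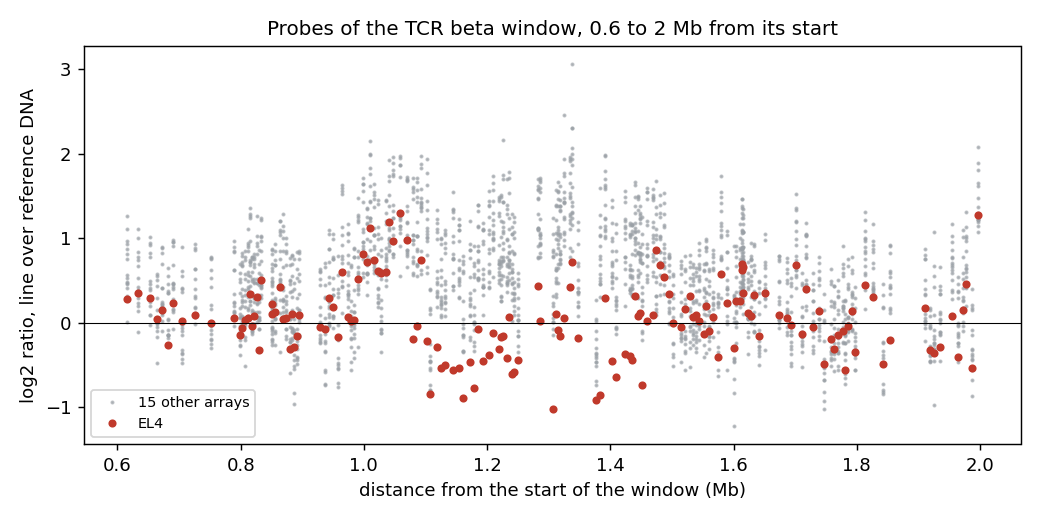
Log2 ratio of each probe (vertical axis) between 0.6 and 2 Mb from the start of the T cell receptor beta window (horizontal axis, Mb). Red points are EL4 and grey points the 15 other arrays; EL4 follows the others through the first 12 probes of the high segment and stays near or below 0 over the next 52, where the others are raised.

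The level of raised probes can be set against the whole genome. The median of the 11 families other than EL4 was at or above 0.5 at 68 of 243 probes in the beta window (28.0%), 87 of 793 in alpha/delta, 78 of 545 in heavy (14.3%), 82 of 315 in kappa (26.0%) and 9 of 209 in gamma (4.31%), against 9.49% of autosomal probes. The beta and kappa windows both lie on chromosome 6, whose flanks were also above 0 in these families (0.15 beside beta and 0.10 beside kappa). In kappa the raised probes formed no segment of their own: 15 of the 16 arrays had 0 boundaries inside this window.

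The T cell receptor gamma window, the smallest by probe number, held no EL4 run. EL4 had 4 low probes between chr13:19197060 and 19339396. At all 4 it was the lowest of the 16 arrays, a rank that the choice of low probes favours. At chr13:19197060-19197119 it read -5.40 against -0.13 to 0.86 in the others, and at chr13:19339341-19339396 it read -3.78 against 0.05 to 0.83; neither probe was above background. At chr13:19213479-19213538 it read -1.59 against -0.12 to 0.63, and at chr13:19332836-19332880 it read -0.42 against 0.09 to 0.95. The 4 low probes were 2 pairs of neighbours on the array, no 3 neighbouring probes were low together, and the share of low probes is near the autosomal background of 1.95%. The search placed the whole window in 1 EL4 segment at 0.13, from 17419916 to 21839023, with -0.78 to the right of it. EL4 was the highest family in this window relative to its flanks (0.31, against -0.13 to 0.14 in the other arrays). Its window median was 0.06 and its flank was -0.01 on the left and -0.66 on the right. The value of 0.31 is thus a distance from a pooled flank (-0.25) that includes the low right side, and the window was close to its left flank. The cause of the lower level on the right was not tested.

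In the immunoglobulin heavy chain window EL4 had 2 shallow low stretches. The run of 4 probes at chr12:115356928-115380360 had a mean of -1.07 ± 0.088 (SD over probes) in EL4 and -0.45 (MC38) to 1.08 (P815) in the others. The difference from all other families was -1.30, or 2.46-fold lower, and with normexp it was -0.78. All 4 probes were above background, and EL4 was the lowest array at each. Balb/C (0.44) and P815 (1.08) were raised there. Against the 7 other C57BI6 families alone (mean -0.06) the difference was -1.01, or 2.02-fold lower. It lay inside an EL4 segment of 21 probes at chr12:115251513-115459855, which had a mean of -0.87 and stood at -1.02 relative to the flank, against -0.17 to 0.12 in the 15 other arrays. A second EL4 segment of 12 probes at chr12:117092070-117181871 was at -0.81 relative to the flank, against 0.02 to 0.21 in the 11 other C57BI6 arrays, -0.32 to -0.28 in Balb/C and -0.07 in P815. EL4 lay outside the range of the other arrays in both segments, whose ends came from EL4's own values. The run was likewise chosen for a low EL4. The count of 9 low probes in this window rests on the comparison families: it was 15 when each array was centred on the flanks of the window and 5 when EL4 was set against C57BI6 families only.

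The kappa window gave no EL4 difference past the threshold. The median of the window was 0.20 in EL4, and the other arrays ran from -0.06 (4T1) to 0.86 (B16F0 ECAC). Relative to its flank EL4 stood at 0.16, inside the range of 0.12 to 0.27 of the 15 others, so over the whole window EL4 was not set apart from the non-lymphoid lines.

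**Figure D4:**
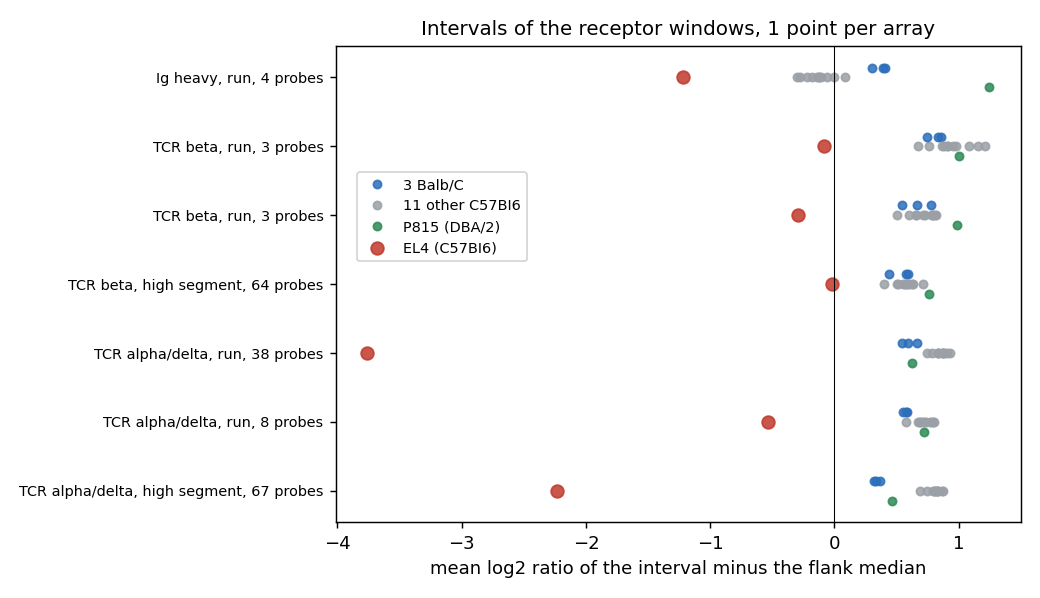
Mean log2 ratio of each interval minus the median of the 5 Mb on each side of its window (horizontal axis), 1 point per array, for the 5 EL4 runs and the high segments of the alpha/delta and beta windows (rows). EL4 (red) lies left of all other arrays in every row, with a mean of -3.76 in the alpha/delta run of 38 probes. The 5 runs were chosen for a low EL4 and the high segments for raised other arrays, so this order follows in part from the choice. Grey points are the 11 other C57BI6 arrays, blue the 3 Balb/C arrays and green P815.

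The loci also differed between the mouse strains from which the lines came. Probes of the 3 Balb/C lines were tested against the 8 C57BI6 families with limma (lmFit and eBayes) over all autosomal probes, at a Benjamini-Hochberg adjusted p of 0.05. In the heavy window 68 of 544 probes were lower in Balb/C (12.5%) and 50 were higher (9.19%), against 1.98% and 0.36% of autosomal probes. In the alpha/delta window 70 of 793 were lower (8.83%) and 5 higher (0.631%). The gamma window had 10 lower of 209 (4.78%), the beta window had 1 higher of 243 and the kappa window had 0 of 314 in either direction. At an unadjusted limma p under 0.05, 6 kappa and 4 beta probes passed in either direction, against 17534 of 220255 autosomal probes. The Balb/C arrays were all scanned in 1 of 2 sessions. With the scan session as a block the counts of lower probes fell to 43 in heavy, 31 in alpha/delta and 5 in gamma and those of higher probes to 22 in heavy and 2 in alpha/delta, and within the session that holds both strains (3 Balb/C lines against B16F10 NCI, Hepa1-6 and ID8) they were 58, 47, 4, 23 and 4. The autosomal share of lower probes fell as well, to 0.928% with the block and 1.25% within the session, and that of higher probes to 0.152% and 0.196%. With Hepa1-6 and PAN02 counted as 1 family, heavy had 63 lower and 52 higher probes and alpha/delta 66 and 4. With normexp the lower probes were 25 in heavy and 11 in alpha/delta, against 0.408% of autosomal probes, and the 6 lower runs described below differed by -1.21 to -0.67, with 6 of their 17 probes called.

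Several runs of the heavy window were far lower in Balb/C. These runs, and the other strain runs below, were built from called probes and named for the largest differences. Their gaps, missing overlaps and p-values therefore follow in part from the choice. At chr12:115480968-115506493 (4 probes) the Balb/C lines had -4.33 ± 0.15 (SD, n = 3) and the C57BI6 families 0.27 ± 0.42 (SD, n = 8), and the ranges did not overlap. P815 was low too, at -3.78, with 3 of its 4 probes not above background. At 2 of the 4 probes no Balb/C line was above background, so Balb/C was at least 11.9-fold lower; the largest adjusted p of the 4 (limma) was 5.0e-09. The next run, at chr12:115534641-115560002 (4 probes), was at -3.35 ± 0.14 (SD, n = 3) in Balb/C and 0.22 ± 0.32 (SD, n = 8) in C57BI6, at least 7.54-fold lower, and P815 was intermediate at -0.87. Both lie in a segment of 10 probes, chr12:115480968-115560002, that the search found with identical ends in all 3 Balb/C lines (-3.19 in CT26, -3.14 in 4T1 and -3.04 in Renca). At 3 of its 10 probes no Balb/C line was above background, so these means are not measured levels. With dim spots set to the lowest signal above background, Balb/C was at least 6.14-fold lower than the 7 C57BI6 families other than EL4. In the 11 other C57BI6 arrays this segment ran from -0.22 to 0.67, and EL4 was among them at 0.28. The third run, at chr12:114517673-114528200 (2 probes), was at -3.11 ± 0.50 (SD, n = 3) in Balb/C and 0.40 ± 0.40 (SD, n = 8) in C57BI6, with P815 at -0.23.

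Other parts of the heavy window were higher in Balb/C. At chr12:114569431-114578297 (2 probes) Balb/C had 1.48 ± 0.27 (SD, n = 3) and C57BI6 -0.28 ± 0.43 (SD, n = 8), 3.38-fold higher, and P815 was high too at 1.77. At chr12:116045060-116112828 (8 probes) Balb/C had 1.15 ± 0.19 (SD, n = 3) and C57BI6 -0.45 ± 0.35 (SD, n = 8), with P815 at -0.34. At chr12:115991194-116018115 (5 probes) Balb/C had 1.08 ± 0.20 (SD, n = 3) and C57BI6 -0.33 ± 0.38 (SD, n = 8), and P815 was low at -2.72. The last of these runs lost probes in most alternatives: 2 of its 5 probes were called with the scan session as a block and within the session. The run of 8 probes kept 6 in both. The 2 last runs lie in a segment of 20 probes at chr12:115933571-116132724, which had 1.26 in 4T1 (the highest segment of this window in any array), 1.11 in Renca and 0.87 in CT26. P815 (-0.91) and the 11 other C57BI6 arrays (-0.61 to 0.26) were below all of them.

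**Figure D5:**
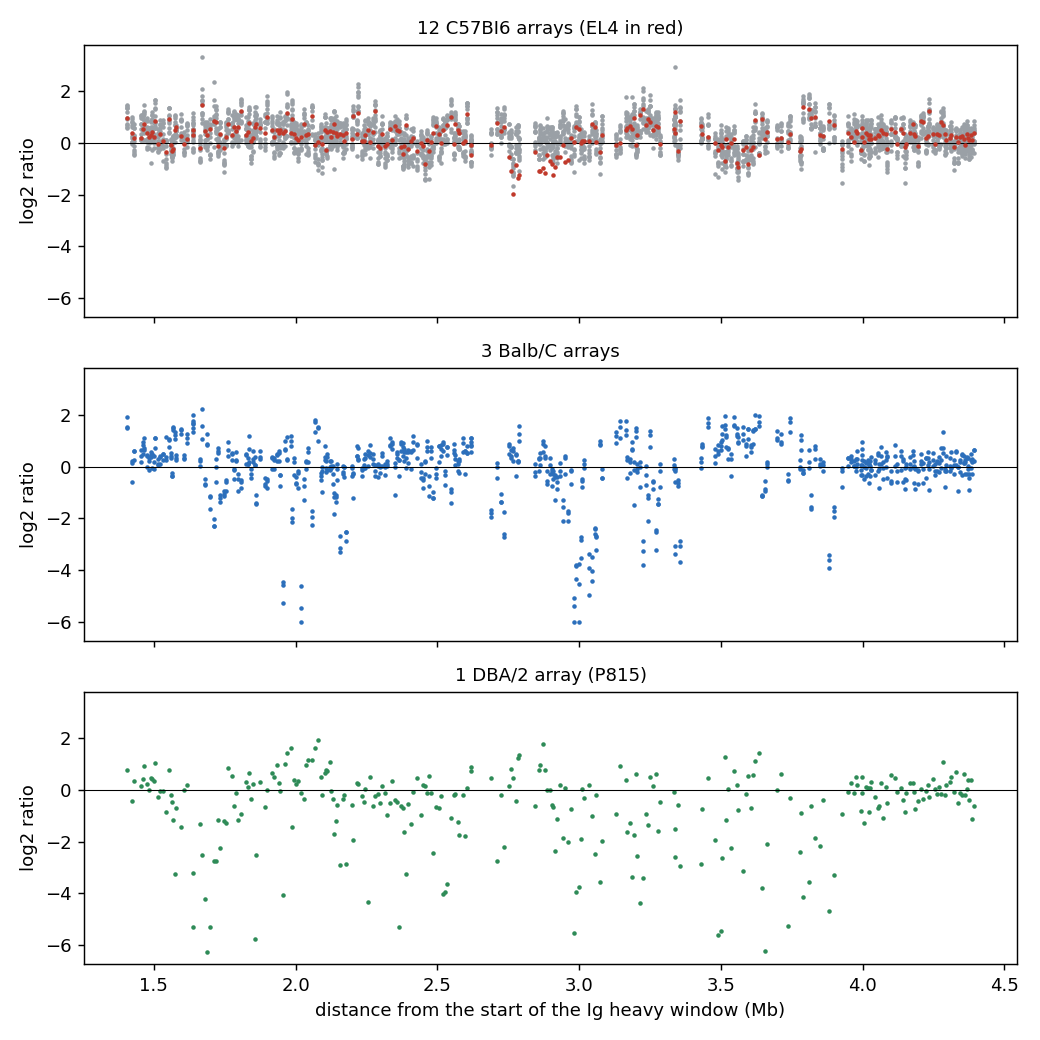
Log2 ratio of each probe (vertical axis) between 1.4 and 4.4 Mb from the start of the immunoglobulin heavy window (horizontal axis, Mb), for the 12 C57BI6 arrays (EL4 in red), the 3 Balb/C arrays and P815. The C57BI6 arrays stay within about 2 of 0 at most probes, the Balb/C arrays reach below -4 near 3 Mb, and P815 has low probes scattered over the whole stretch.

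P815, the 1 DBA/2 line, had the most low probes of any array in the heavy window. At a difference of -1 or less from the other families it had 119 of 545 (21.8%), against 4.28% of its autosomal probes, and the Balb/C lines had 43 to 56, against 1.05% in CT26, 1.06% in 4T1 and 1.56% in Renca. The search cut its heavy window with 10 boundaries and that of Renca with 9. With the penalty doubled and with normexp Renca had the most boundaries of the arrays other than EL4, 5 and 6. The lowest segment was chr12:114139602-114218656 (9 probes), with -3.73 in P815 and -0.01 to 1.17 in the 11 other C57BI6 arrays. At 6 of the 9 probes P815 was not above background, and it was at least 7.22-fold lower than the 7 C57BI6 families other than EL4. The Balb/C lines were at 0.17 to 0.22 there, so the mean of this stretch set P815 apart from both other strains. Within it, however, the 2 probes at chr12:114198461-114210770 were lower in Balb/C too. They had -1.77 in Balb/C, 0.46 in C57BI6 and -4.02 in P815. Further low P815 segments were chr12:115012563-115047390 (5 probes, 3 not above background, -2.59), chr12:115414271-116004191 (49 probes, 11 not above background, -1.61) and chr12:116144111-116400222 (17 probes, 6 not above background, -2.42). In the last, the Balb/C lines had -0.32 to -0.06 and the other C57BI6 arrays 0.10 to 0.93. With 1 line of this strain, strain and line cannot be told apart, and no test was made.

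P815 had 4 segment boundaries inside the kappa window and the other arrays had 0. With the penalty doubled P815 had 1, and with normexp the most were 5, in B16F0 ECAC. In P815 chr6:67091719-67276481 (22 probes) stood 1.06 above its flank, against 0.20 to 0.42 in the 15 other arrays. Its neighbour chr6:67284251-67969771 (66 probes) stood at -0.37, against 0.06 to 0.23. Before the flank was subtracted they were at 1.11 and -0.32, the highest and the lowest of the segments lying wholly inside the kappa window. Only P815 had such segments, so this rank was fixed by its boundaries.

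In the alpha/delta window the strain differences lay mostly to the left of the EL4 run. At chr14:50675715-50679218 (2 probes) Balb/C had -3.61 ± 0.25 (SD, n = 3) and C57BI6 0.60 ± 0.24 (SD, n = 8). Neither probe was above background in any Balb/C line, so Balb/C was at least 13.2-fold lower, while P815 had 0.82, within reach of C57BI6. At chr14:52616371-52637151 (3 probes) Balb/C had -1.91 ± 0.23 (SD, n = 3) and P815 -1.55, against 1.30 ± 0.45 (SD, n = 8) in C57BI6. EL4 was the lowest C57BI6 family there, at 0.28. At chr14:50881831-50890166 (2 probes) Balb/C had -2.42 ± 0.46 (SD, n = 3), P815 -1.79 and C57BI6 0.77 ± 0.22 (SD, n = 8). A segment of 5 probes, chr14:52016351-52300139, was found with the same ends in all 3 Balb/C lines, at -3.28 in Renca, -3.02 in CT26 and -2.87 in 4T1. In each of these lines 3 of the 5 probes were not above background, so the means are not measured levels. With dim spots set to the lowest signal above background, Balb/C was at least 5.31-fold lower than the 7 C57BI6 families other than EL4. EL4 (0.29), the 11 other C57BI6 arrays (-0.07 to 0.81) and P815 (-0.37) were above the Balb/C lines, so the segment followed the Balb/C label. In the EL4 run of 38 probes, by contrast, Balb/C (0.25 to 0.49) and P815 (0.59) were both on the side of the other lines.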

How the data were processed

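The 5 windows and the lists were chosen with earlier results of these data known. Genomic DNA of 1 culture per line (Cy5) was hybridised with commercial mouse genomic DNA (Cy3), per the labels. Agilent Feature Extraction 10.7.3.1 produced the deposited intensity values, background-subtracted and scaled between the dyes with a linear factor, per the file headers. A log10 ratio of processed red over green is also deposited, as the file headers give it, and the authors' deposited log2 value table held the same ratios to within 5.1e-05. Flags and other deposited columns came from the scanner software, per the file headers. The median signals used for normexp (offset 50) stood in for the mean signals of the plan, which were not used here.

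Log2 ratios of processed signals were computed here, outlier spots were left out, spots of 1 probe were averaged, and each array was centred on its autosomal median. Strains were compared with limma 3.58.1 in R 4.3.3. Segments came from a penalised change point search (at least 5 probes). Each search and fit was tested on simulated data. Bounds set dim spots to the lowest signal well above background. Named positions were all EL4 runs, the lowest and highest segment lying wholly inside each window, and strain runs. The strain runs were, per window and direction, the 3 of at least 2 called probes with the largest mean difference. Other intervals were taken from segment ends after their values were seen. The planned gene list was not run, since no file pairs probes with genes. Lines and families were the replicates, so p-values measure the spread between lines. Alternatives were centring, background correction, thresholds, filters, comparison arrays, scan session and leaving out each line.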

Additional observations from a re-analysis of the deposited data

Results flagged for a closer look

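Among the 8 C57BI6 families, 22 values of the windows were examined for 1 family standing apart from the other 7 by Dixon's criterion (a gap to the nearest family over 0.526 of the range), and 10 did. Chance marks about 1 in 20 such groups, but the EL4 runs and the interval of 52 beta probes were chosen for a low EL4 and the other intervals were taken after their values were seen, so these gaps are descriptions and the count of 10 cannot be set against that rate.

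EL4 was the lowest family in 8 of them. It stood at -4.00 in the 38-probe run of the alpha/delta window (next family 0.56), at -0.78 in the 8-probe run beside it (next 0.45), and at -0.27 (next 0.65) and -0.064 (next 0.82) in the runs of the beta window. Relative to the flanks it stood at -2.23 over the high segment of alpha/delta (next 0.74), at -0.024 over that of beta (next 0.40) and at -0.22 over its last 52 probes (next 0.37). In the strain run at chr14:52616371-52637151 it stood at 0.28 (next 1.11).

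EL4 was the highest family in the gamma window relative to the flanks, at 0.31 (next 0.04), with its flank at -0.01 on the left and -0.66 on the right. PAN02 was the highest in the heavy window relative to the flanks, at 0.19 (next 0.12).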

How the results depend on the processing

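Low EL4 probes (57 in alpha/delta, 18 beta, 4 gamma, 9 heavy, 0 kappa) became 9, 2, 1, 1 and 0 with normexp. At a difference of 0.5 they were 86 in alpha/delta, 51 beta, 29 heavy and 6 kappa (9.30% of autosomal probes), and at 1.5 they were 0 in beta and 1 in heavy. Flank centring gave 15 in heavy, C57BI6 families only gave 5 in heavy, and mode centring gave 1 in kappa. High EL4 probes (1 each in alpha/delta, gamma and heavy) became 4, 21 and 28, and 1 in beta, at 0.5, and 0 in each of the 3 at 1.5. With normexp they were 0 in gamma and 3 in heavy, and in heavy 0 with flank centring, mode centring or C57BI6 families only. Leaving out 1 family at a time gave 56 to 57 low probes in alpha/delta, 14 to 21 in beta, 4 in gamma, 9 in heavy and 0 in kappa, and 1 to 2 high probes in gamma and 0 to 2 in heavy. The 38-probe run went from -4.62 to -0.87 with normexp and the sign of no EL4 run turned. EL4 boundaries (6 in alpha/delta, 2 beta, 4 heavy) became 3, 0 and 2 with the penalty doubled and 2, 1 and 0 with normexp. The EL4 window medians moved by less than the spread of the other arrays.

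Strain probes lower in Balb/C (70 alpha/delta, 0 beta, 10 gamma, 68 heavy) became 31, 5 (gamma) and 43 (heavy) with scan session as a block and 11, 1 (gamma) and 25 (heavy) with normexp. Within the session holding both strains they were 4 in gamma and 1 in beta. Probes higher in Balb/C (5 alpha/delta, 50 heavy) became 2 in alpha/delta with the block or normexp, and in heavy 22 with the block and 23 within the session. Leaving out 1 line or family at a time gave 6 to 10 lower probes in gamma (6 without Renca), 1 to 2 higher in beta, and 31 to 58 higher in heavy (31 without 4T1, 33 without Renca). With normexp 6 of the 17 probes in the 6 lower runs were called; no named run changed sign. The causes were not tested. Mode centring moved arrays by -0.08 (B16F0 ATCC) to 0.12 (Renca). No paired analysis was possible because the labels give the strains no shared replicate numbers. The number of arrays, and EL4, Balb/C and P815 signals at the background, limit the low levels to bounds.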
